A study of Mus musculus with 11 samples.

Results

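The genes examined were 7 subunits of the GABA-A receptor, namely Gabra2, Gabra3, Gabra4, Gabra5, Gabrb1, Gabrb2 and Gabrg1, chosen by name and compared across 4 brain regions. They are 7 of the 19 GABA-A subunit genes and of the 24421 entries in each table. Astrocytes had been FACS-isolated by the GFP of Aldh1l1-eGFP mice, strain C57BL/6, at an age of 16 weeks, from the olfactory bulb (OB, 3 libraries), hippocampus (HC, 3), cortex (CX, 2) and brainstem (BS, 3). The labels name no treatment, and all libraries carried the same transgene, in which the astrocytic gene Aldh1l1 drives the reporter, so each region is defined by dissection and by what this reporter labels. Whether each library came from its own animal is not given in the sources used here, so p-values measure the spread between libraries, which may in part be technical.

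GABA-A receptors are pentameric chloride channels opened by the transmitter GABA, most often built from alpha, beta and gamma subunits. The alpha subunit sets much of the sensitivity to GABA and to benzodiazepines, the beta subunits complete the GABA binding site, and the gamma subunit forms the benzodiazepine site together with alpha and takes part in placing receptors at synapses. Astrocytes express such receptors too, and because they hold more chloride inside than mature neurons do, GABA commonly depolarizes them.

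Each value is a gene's read count divided by a size factor for its library, and between 2830746 and 14151670 reads per library lay on genes. A floor of 3 reads corresponded to values of 1.10 to 6.31, and all 7 subunits lay above it in every library, the closest being Gabra5 with 4 reads in BS replicate 1. Floors cover counting error only. All 8 astrocyte markers were detected in every library, with Aldh1l1 between 542 and 1317. The share of reads on the ribosomal RNA entry Rn45s was 0.966% to 2.93% in OB and HC libraries and 18.0% to 25.6% in CX and BS libraries, a difference that cannot be told apart from region. Sorted libraries are bulk samples, in which fewer cells of a type and less RNA per cell cannot be told apart.

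On the GRCm38 build, 4 of the 7 genes sit side by side on chromosome 5 between 70751047 and 72149037. In GENCODE coordinates Gabrg1 spans 70751047 to 70842617, Gabra2 70957597 to 71095849 and Gabra4 71569749 to 71658308, all on the minus strand. Gabrb1 runs the other way, from 71658113 to 72149037 on the plus strand, so that its 5′ end overlaps that of Gabra4 by 196 bases. Gabra5 lies on chromosome 7 from 57407672 to 57510059. Gabrb2 lies on chromosome 11 from 42419757 to 42629028, and Gabra3 on chromosome X from 72432681 to 72656848. Whether counting used strand is not given in the sources used here, so reads from stretches that any of the 7 genes shares with another gene model could not be assigned with certainty.

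The promoter windows of 3 neighbours on chromosome 5 and of the other subunits with a regional call are shown, because they differ widely in CpG content. Each window is from RefSeq on GRCm38.p6 and runs 5′ to 3′ on the gene's strand, from 250 bases before to 50 bases after an annotated start, with CpG dinucleotides in capitals. The windows are chr5:71658259-71658558 (minus strand) for Gabra4, chr5:71657671-71657970 (plus strand) for Gabrb1, chr5:70842568-70842867 (minus strand) for Gabrg1, chrX:72656870-72657169 (minus strand) for Gabra3 and chr7:57510010-57510309 (minus strand) for Gabra5.
Gabra4: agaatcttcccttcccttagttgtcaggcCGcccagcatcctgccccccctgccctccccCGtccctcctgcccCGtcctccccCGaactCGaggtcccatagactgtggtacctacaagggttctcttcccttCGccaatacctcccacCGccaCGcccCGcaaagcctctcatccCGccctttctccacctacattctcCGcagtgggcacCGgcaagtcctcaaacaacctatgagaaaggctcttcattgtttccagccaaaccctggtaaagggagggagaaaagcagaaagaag
Gabrb1: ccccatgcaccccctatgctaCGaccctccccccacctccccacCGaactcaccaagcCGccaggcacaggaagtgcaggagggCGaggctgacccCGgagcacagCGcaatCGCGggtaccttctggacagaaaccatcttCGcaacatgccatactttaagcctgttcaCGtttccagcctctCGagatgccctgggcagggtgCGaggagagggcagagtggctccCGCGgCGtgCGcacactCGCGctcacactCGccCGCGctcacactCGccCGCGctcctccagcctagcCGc
Gabrg1: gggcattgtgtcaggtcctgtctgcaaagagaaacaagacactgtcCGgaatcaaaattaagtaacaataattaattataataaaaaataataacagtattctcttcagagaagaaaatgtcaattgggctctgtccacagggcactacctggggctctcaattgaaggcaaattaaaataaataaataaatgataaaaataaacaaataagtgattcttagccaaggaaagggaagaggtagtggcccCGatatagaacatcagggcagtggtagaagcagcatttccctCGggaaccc
Gabra3: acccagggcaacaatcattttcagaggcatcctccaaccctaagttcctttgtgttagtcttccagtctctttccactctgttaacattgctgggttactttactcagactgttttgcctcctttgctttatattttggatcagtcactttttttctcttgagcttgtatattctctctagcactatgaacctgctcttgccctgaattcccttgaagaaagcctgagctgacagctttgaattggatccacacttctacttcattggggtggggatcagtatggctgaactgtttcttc
Gabra5: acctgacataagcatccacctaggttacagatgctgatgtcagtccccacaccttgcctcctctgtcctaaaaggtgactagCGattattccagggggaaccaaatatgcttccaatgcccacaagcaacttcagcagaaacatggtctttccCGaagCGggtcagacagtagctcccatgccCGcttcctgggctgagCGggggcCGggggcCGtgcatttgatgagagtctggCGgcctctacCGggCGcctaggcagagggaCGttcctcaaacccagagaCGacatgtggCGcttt
The Gabrb1 window held 25 CpG dinucleotides and the Gabra4 window 12, and these windows, on opposite strands at the overlapping 5′ ends, were 288 bases apart. Of the same cluster, Gabra2 (window not shown) held 25 and Gabrg1 held 3, while Gabra3 held 0 and Gabra5 13. Over 32851 such windows of all genes the median was 7, with quartiles of 3 and 20. The TATA motif TATAAA, searched on both strands, was present in 13.6% of all windows. All 7 genes had at least 1 window, 11 windows in all, of which 3 held this motif, both of Gabra3 and 1 of Gabrb2. Both Gabra3 windows overlap and hold the same copy of the motif, so the 3 windows are not 3 separate sites. The core TTGGCA of the NFI motif, also searched on both strands, was found in 0 of these 11 windows and in 14.1% of all windows.

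The first question was whether each subunit differed among the 4 regions at all. In a moderated F-test (limma on log2(value + 1), Benjamini-Hochberg over 13875 genes), Gabra3 and Gabra5 passed an adjusted p of 0.05, that is 2 of 7, or 28.6%, where 16.5% of all genes tested passed. With 7 genes this share does not set the group apart from all genes. All 7 had passed the filter on low counts. The remaining 5 did not pass, with adjusted p-values of 0.111 for Gabrg1, 0.138 for Gabrb1, 0.399 for Gabra4, 0.505 for Gabrb2 and 0.602 for Gabra2. At an unadjusted p under 0.05, Gabrb1 and Gabrg1 passed as well, which makes 4 of 7.

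**Figure D1:**
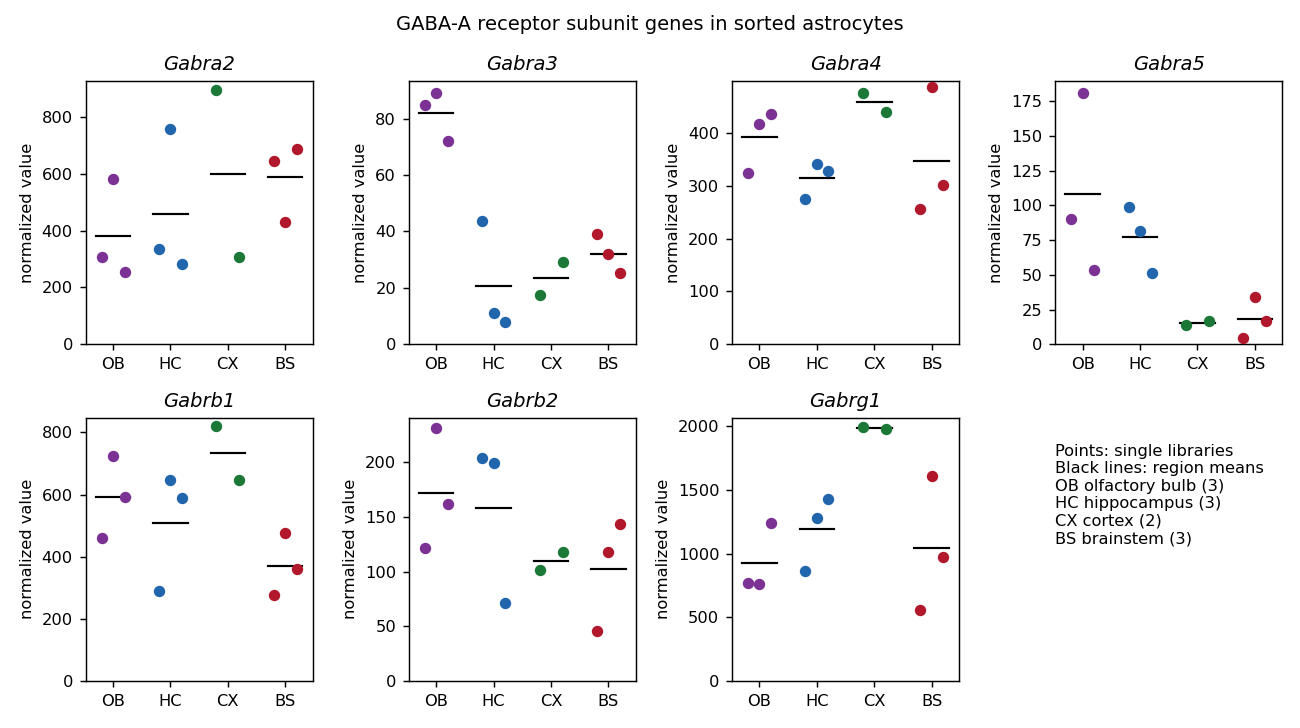
Normalized value of each of the 7 subunit genes (vertical axes, linear, starting at 0) in each library, grouped by region on the horizontal axes, with region means as black lines. The 3 OB points of Gabra3 (72.2 to 89.2) and both CX points of Gabrg1 (1982 and 1995) lie above every point of the other regions, and the OB and HC points of Gabra5 lie above its CX and BS points.

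Gabra3 encodes alpha3, a subunit of benzodiazepine-sensitive receptors. Its values were 84.7, 89.2 and 72.2 in OB replicates 1 to 3, 43.7, 10.96 and 7.70 in HC, 17.6 and 29.1 in CX and 38.9, 32.1 and 25.3 in BS. All OB libraries lay above all others, and HC replicate 1 stood above the other HC libraries, by a factor of 5.68 against the lowest. Against the other regions pooled, Gabra3 was higher in OB by 1.82 ± 0.49 on the log2 scale (SE, limma adjusted p = 0.0506), with means of 82.0 and 25.7. The study's rule, as used here, asks for an unadjusted p under 0.01, a fold over 1.5 and, in 2 or more replicates of some region, a value over 5. These thresholds were applied to limma fits unless another tool is named. The study itself used DESeq2 and described its genes as changed in 1 region only, a condition not applied here. By this rule Gabra3 was the 1 subunit of the 7 called in OB, where 4.15% of all genes were called higher and 3.89% lower. Separation of all OB libraries above the rest was seen in 4.93% of all genes.

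Among the 4 regions the adjusted p of Gabra3 was 0.0427 (limma). An exact permutation test over 92400 assignments of libraries to regions gave p = 0.0313, unadjusted for the number of genes, as are all permutation p-values here. Leaving out 1 library at a time kept the adjusted p under 0.05 in 2 of 11 cases, without HC replicate 1 or BS replicate 2, and lost it in the other 9, with a range from 0.00404 without HC replicate 1 to 0.145 without OB replicate 2. The log2 change in OB stayed between 1.62 and 1.95 in those fits, and the OB call was lost without OB replicate 1 or OB replicate 2. Between pairs of regions, OB against HC passed (2.31 ± 0.56, SE, limma adjusted p = 0.0186), where 7.11% of all genes did, and this call was lost without any 1 OB library, HC replicate 2 or HC replicate 3. OB against CX gave 1.81 ± 0.63 (adjusted p = 0.134, limma) and OB against BS 1.34 ± 0.56 (adjusted p = 0.133, limma). The libraries overlapped in neither pair, which only restates that all OB libraries lay above the rest.

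The OB libraries also had the highest marker sums for inhibitory neurons and for neuroblasts. The summed value of Gad1, Gad2 and Slc32a1 was 634 to 897 in OB, 69.4 to 164 in HC, 133 to 190.1 in CX and 189 to 367 in BS. Of these 3 genes 2, Gad1 and Gad2, differed among regions. Slc32a1 did not (limma adjusted p = 0.283), and its OB values of 31.2 to 76.6 overlapped those in BS, 3.15 to 52.1. Neuroblast markers (Dcx, Sp8, Sp9, Dlx1 and Dlx2) summed to 612 to 788 in OB and to at most 85.9 elsewhere, with 4 of 5 differing among regions and Dlx1 and Dlx2 at 0 in BS. The part of these cells in the Gabra3 values was not tested.

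Gabra5 encodes alpha5, a subunit of extrasynaptic receptors best known from hippocampal neurons. Its values were 90.1, 181 and 53.3 in OB, 98.7, 81.3 and 51.0 in HC, 13.8 and 16.9 in CX and 4.21, 34.1 and 16.8 in BS. The lowest library of OB and HC (51.0) lay above the highest of CX and BS (34.1), a separation of these regions that 0.497% of all genes showed and that was looked for after the values had been seen. The reads behind the low values were few, 11 in each CX library and 4, 17 and 8 in BS. Replicates also spread widely, by a factor of 3.39 in OB and 8.10 in BS.

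Gabra5 had the smallest F-test p of the 7 subunits, with an adjusted p of 0.0107 (limma) and an unadjusted exact permutation p of 0.0167. It kept an adjusted p under 0.05 without any 1 of the 11 libraries, from 0.00242 to 0.0377. OB against BS differed by 2.70 ± 0.63 on the log2 scale (SE, limma adjusted p = 0.00902), where 15.0% of all genes passed, and HC against BS by 2.34 ± 0.63 (adjusted p = 0.0473, limma), where 4.63% did. The first of these calls was lost only without OB replicate 2, and the second was kept only without BS replicate 2. The OB and CX means of 108 and 15.3 differed by 2.57 ± 0.71 (adjusted p = 0.0501, limma), just above the threshold of 0.05. OB and HC were not told apart (0.36 ± 0.63, adjusted p = 0.848, limma), and neither were CX and BS (0.13 ± 0.71, adjusted p = 0.937, limma). In limma fits of 1 region against the pooled rest, the study's rule did not call Gabra5 in any region, with log2 changes of 1.79 ± 0.76 in OB and -1.93 ± 0.74 in BS (SE). DESeq2 on the recovered reads called it in BS, and limma against the mean of the 3 other region means called it in OB and BS. In BS limma also called it without CX replicate 1, CX replicate 2 or BS replicate 2.

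Regions with high Gabra5 were those with a low Rn45s share, and the reverse, so that this share and region cannot be told apart. Of 8 neuron markers 5 differed among regions, and none was at 0 in any library. By the study's rule 5 of the 8, namely Snap25, Stmn2, Eno2, Nefl and Nefm, were higher in BS, and Syt1 and Rbfox3 were lower there. Syt1, a synaptic gene, was 455 to 1209 in OB, 245 to 553 in HC, 288 to 411 in CX and 115 to 199.95 in BS (chosen after the values had been seen). The sum of all 8 was 1530 to 2858, 1215 to 2278, 2186 to 2729 and 2695 to 3917 in OB, HC, CX and BS, so that all BS libraries lay above all HC libraries, where Gabra5 was higher in HC. OB replicate 2, where Gabra5 was highest at 181, also had the highest Syt1 value, and the part of neuronal RNA in the Gabra5 values was not tested.

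Gabra2 encodes alpha2, an alpha subunit abundant in forebrain neurons. Its values were 308, 583 and 253 in OB, 336, 759 and 281 in HC, 895 and 307 in CX and 646, 431 and 688 in BS. Replicates of one region differed by more than the regions did, since the CX libraries alone were a factor of 2.92 apart while the highest and lowest region means were a factor of 1.57 apart. No difference among regions was detected (limma adjusted p = 0.602, exact permutation p = 0.606), and the largest pairwise change, OB against BS, was -0.69 ± 0.42 on the log2 scale (SE).

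Gabra4 encodes alpha4, which in neurons forms extrasynaptic receptors with the delta subunit. Its values were 324, 417 and 436 in OB, 275, 342 and 327 in HC, 476 and 440.0 in CX and 255, 487 and 301 in BS. Its region means lay closest together of the 7 genes, within a factor of 1.46, and only BS replicate 2 stood apart from its own region. The F-test gave an adjusted p of 0.399 (limma) and the exact permutation test p = 0.299. Per unit of Aldh1l1, Gabra4 lay between 0.332 and 0.507 in all 11 libraries, with region means of 0.410 in OB, 0.425 in HC, 0.392 in CX and 0.419 in BS, a ratio chosen after the values had been seen. The delta gene Gabrd had at most 15 reads in any library and did not pass the filter.

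Gabrb1 encodes beta1, and Gabrb2 encodes beta2, the beta subunit of the most common neuronal receptor. Gabrb1 values were 460.4, 724 and 592 in OB, 289, 648 and 590.0 in HC, 820.4 and 649 in CX and 278, 477 and 359.9 in BS. Both CX libraries lay above all BS libraries, a separation whose share over all genes was not counted, and HC replicate 1 lay within the BS range. The F-test p of Gabrb1 was 0.0358, which did not survive adjustment (limma adjusted p = 0.138, exact permutation p = 0.158). The widest gap, CX against BS, was 1.01 ± 0.32 on the log2 scale (SE, limma adjusted p = 0.0585), where 10.9% of all genes passed. Without HC replicate 1 the adjusted p among regions was 0.0350.

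Gabrb2 values were 122, 231 and 162 in OB, 204, 199 and 71.5 in HC, 102 and 118 in CX and 45.2, 118 and 143 in BS. The regions overlapped except that the OB libraries lay above both CX libraries, and the share of all genes with that separation was not counted. Within BS the libraries were a factor of 3.17 apart. No difference was detected (limma adjusted p = 0.505, exact permutation p = 0.508), with the OB to BS change at 0.85 ± 0.45 on the log2 scale (SE).

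Gabrg1 encodes gamma1, a gamma subunit long associated with glial cells. Its values were 769, 762 and 1238 in OB, 859.5, 1281 and 1428 in HC, 1995 and 1982 in CX and 554, 1609 and 977 in BS. The CX libraries were nearly equal and lay above all 9 others, of which BS replicate 2 came closest. Against the other regions Gabrg1 was higher in CX by 0.99 ± 0.33 on the log2 scale (SE, limma adjusted p = 0.347), with means of 1989 and 1053. This passed the study's rule, which called 1.02% of all genes higher and 1.74% lower in CX, but not an adjusted p of 0.05, and all CX libraries lay above the rest in 5.02% of all genes. The call was kept in 5 of 11 fits that left out 1 library, with the log2 change between 0.89 and 1.08, and was lost without OB replicate 1, OB replicate 2, HC replicate 1, BS replicate 3 or either CX library.

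Among the 4 regions Gabrg1 had an F-test p of 0.0259 (limma adjusted p = 0.111, exact permutation p = 0.172). CX exceeded BS by 1.06 ± 0.35 (SE, limma adjusted p = 0.0689), and OB minus CX was -1.15 ± 0.35 (adjusted p = 0.0816, limma), a contrast in which 4.91% of all genes passed. OB, HC and BS were not told apart from each other.

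**Figure D2:**
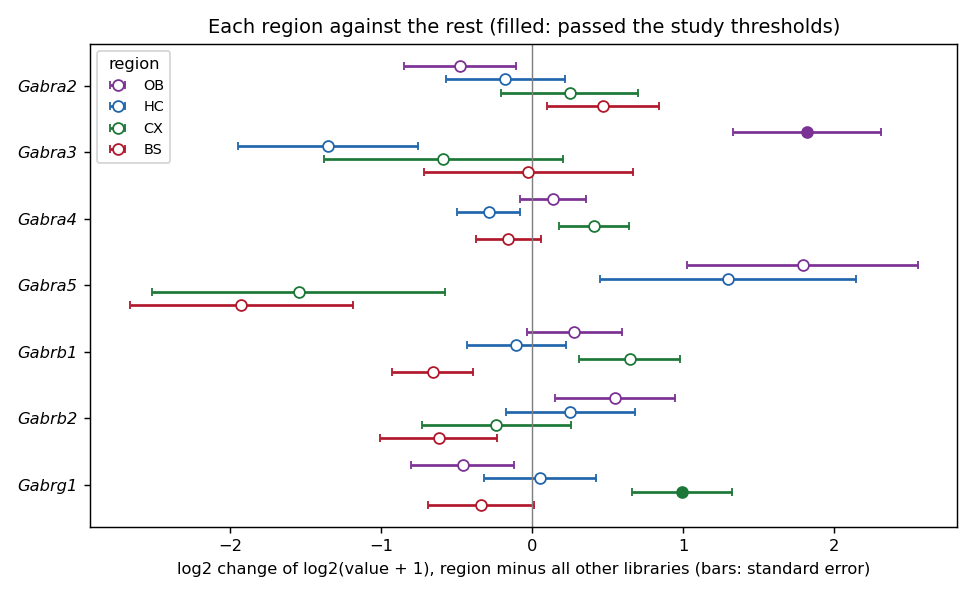
Log2 change of each subunit in each region against all other libraries (horizontal axis, difference in log2(value + 1)), with bars of 1 standard error and filled points where the study's rule was passed. The filled points are Gabra3 in OB at 1.82 and Gabrg1 in CX at 0.99, and the Gabra5 points lie above 0 in OB and HC and below 0 in CX and BS.

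In HC and in BS against the rest, 0 of the 7 subunits were called (limma), where 0.281% of all genes were called higher and 1.00% lower in HC, and 3.98% higher and 5.05% lower in BS. At an unadjusted p under 0.05 there was 1 in HC, Gabra3 (log2 change -1.35 ± 0.60, SE), and 2 in BS, Gabra5 (given above) and Gabrb1 (-0.66 ± 0.27). edgeR on the recovered reads called 0 in both regions, and DESeq2 called 0 in HC and 1, Gabra5, in BS. Over the 6 pairs of regions, 3 of 42 pairwise tests of the 7 subunits passed, all named above, with 0 in OB against CX, HC against CX and CX against BS. Of all genes, 7.11% passed in OB against HC, 4.91% in OB against CX and 15.0% in OB against BS. The shares were 1.23% in HC against CX, 4.63% in HC against BS and 10.9% in CX against BS. Beside these shares, 3 calls do not set the subunits apart from all genes. At an unadjusted p under 0.05, OB against CX, HC against CX and CX against BS held 3, 3 and 2 of the 7. In the same contrasts edgeR with TMM factors called 1, 0 and 0, and DESeq2 called 2, 1 and 1. The 3 calls became 0 without OB replicate 2 and 8 without BS replicate 2.

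Within regions, the order of libraries by subunit value was compared with their order by marker sums. Counting the 10 pairs of libraries of one region, Gabrg1 was in the same order as the summed astrocyte markers in 10, Gabra4 in 8 and Gabrb1 in 7. That sum is mostly Slc1a2, and with Aldh1l1 alone the counts were 9, 7 and 6. Gabra2, Gabra3, Gabra5 and Gabrb2 were in the same order as the neuron marker sum in 8 of 10 each, and in the order of the astrocyte sum in 3, 1, 3 and 3. For the oligodendrocyte marker sum these counts were 7, 5, 7 and 7, and for the inhibitory neuron sum 3, 7, 7 and 5, in the same order of genes. These orders describe 11 libraries that share their size factors with the markers, and they were examined after the values had been seen.

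The astrocyte marker sum was itself highest where Gabrg1 was highest. It was 555938 to 630026 in CX, 270999 to 461723 in HC, 230526 to 275534 in OB and 93288 to 277780 in BS, with Slc1a3 and Gfap, 2 of the 8 markers, differing among regions. Most of the sum came from Slc1a2 alone, so it mainly follows that gene. Slc1a2 had means of 507178 in CX, 334214 in HC, 177229 in OB and 128002 in BS (limma adjusted p = 0.165). For each 1000 of this sum, Gabrg1 was 3.17 to 3.57 in CX, 2.80 to 3.17 in HC, 3.26 to 4.49 in OB and 5.79 to 6.10 in BS. Per unit of Aldh1l1 it was 1.52 to 1.90 in CX, 1.54 to 1.59 in HC, 0.789 to 1.29 in OB and 0.889 to 1.49 in BS. The CX libraries, highest on the size-factor scale, lay below BS on the first ratio and around HC on the second, and the part of astrocyte RNA content in the Gabrg1 values was not tested.

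**Figure D3:**
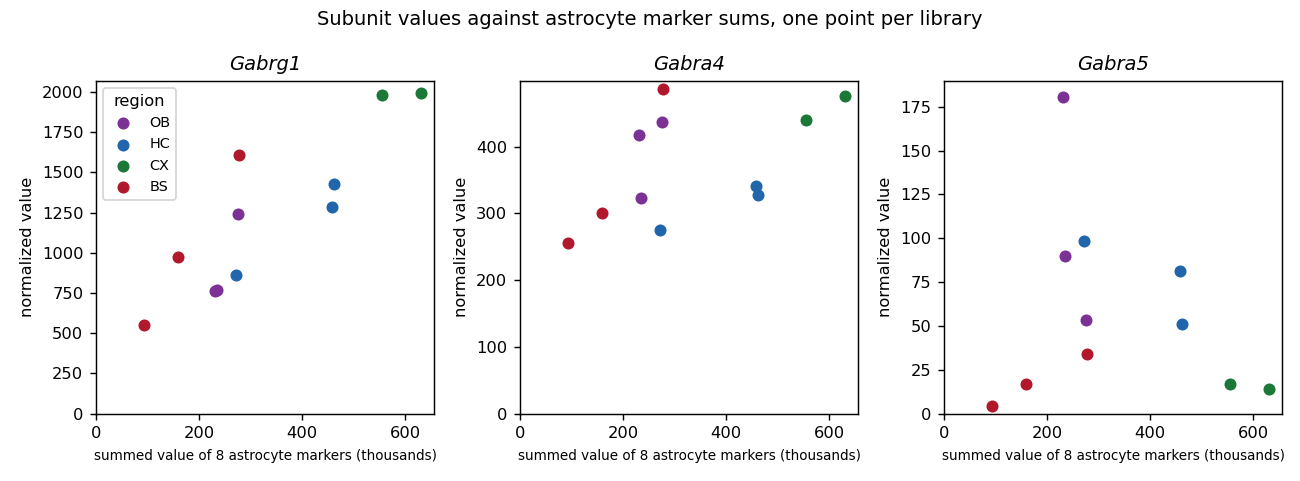
Normalized values of Gabrg1, Gabra4 and Gabra5 (vertical axes) against the summed value of 8 astrocyte markers divided by 1000 (horizontal axes), one point per library, coloured by region, all axes linear from 0. Most of the marker sum is Slc1a2. Gabrg1 rises with the marker sum inside each region, and Gabra5 is at 16.9 or less in CX libraries, which have the highest marker sums.

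Per kb of exon, a scale on which different genes can be compared, Gabrg1 was the most abundant subunit in each region mean. Its level was 117 ± 34.7 per kb in OB, 151 ± 37.5 in HC, 253 ± 1.13 in CX and 133 ± 67.5 in BS (SD, n = 3, 3, 2 and 3). As a share of the summed levels of the 19 subunit genes this was 24.7% ± 8.76 in OB, 33.7% ± 8.77 in HC, 43.0% ± 2.68 in CX and 31.1% ± 6.97 in BS (SD, same n). These shares are descriptions without a test. With coding length in place of exon length the shares were 28.4%, 37.4%, 45.2% and 34.8%.

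Among the alphas, Gabra2 took 20.7% ± 9.57 in BS and 9.99% ± 2.93 in OB, and Gabra4 11.5% ± 1.28 in HC to 13.9% ± 1.69 in BS. Gabra5 took 7.19% ± 3.24 in OB and 0.883% ± 0.182 in CX, and Gabra3 4.36% ± 0.772 in OB and 1.03% ± 0.422 in CX. Gabrb1 took 6.62% ± 0.380 in BS to 8.99% ± 0.891 in CX. Coding length moved these shares more than that of Gabrg1. It gave Gabrb1 12.7% in BS and 16.2% in CX, Gabra3 2.20% in OB and 0.471% in CX, and Gabra5 3.20% in OB and 0.353% in CX, while Gabra4 ranged from 8.02% in HC to 9.68% in BS. Together the 7 genes made up 73.8% of the summed levels in OB, 78.6% in HC, 82.8% in CX and 79.8% in BS.

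**Figure D4:**
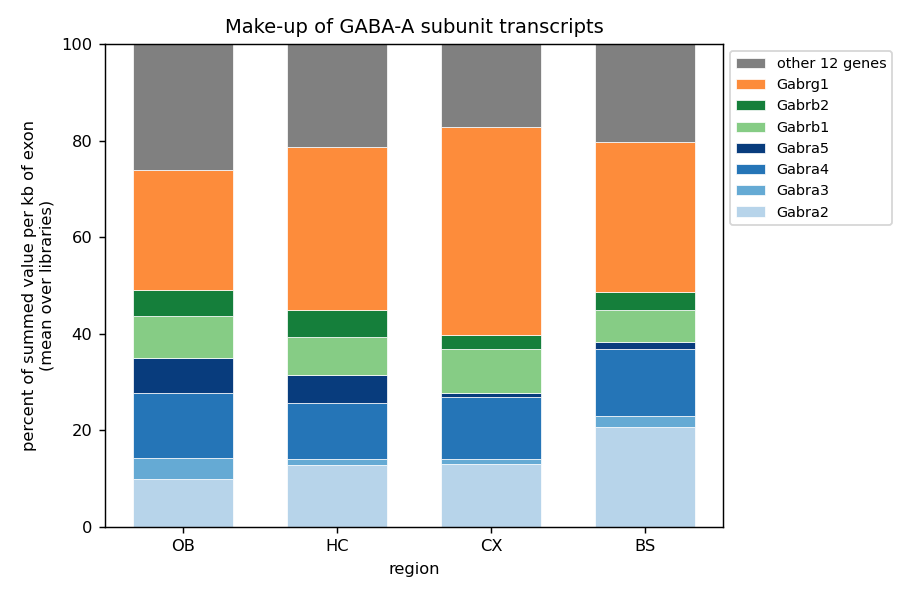
Mean share of each of the 7 subunit genes, and of the 12 other GABA-A subunit genes pooled (grey), in the summed value per kb of exon (vertical axis, percent, from 0 to 100) in each region (horizontal axis), with alpha genes in blue, beta genes in green and Gabrg1 in orange. Gabrg1 is the largest segment of a single gene in every region, from 24.7% in OB to 43.0% in CX.

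Of the 12 other subunit genes, 7 passed the filter on low counts and 2 of these, Gabrg3 and Gabra6, differed among regions. Gabrg3, which encodes gamma3 and lies beside Gabra5 on chromosome 7, had values of 97.7, 75.8 and 102 in OB, 15.0, 17.4 and 37.8 in HC, 80.4 and 44.5 in CX and 3.15, 34.1 and 14.7 in BS (limma adjusted p = 0.0241). The OB libraries lay above those of HC and BS, a separation whose share over all genes was not counted. OB against BS passed (2.80 ± 0.66 on the log2 scale, SE, limma adjusted p = 0.00903), where 15.0% of all genes did. Its call among regions was kept in 6 of 11 fits that left out 1 library, and was lost without any 1 OB library, CX replicate 1 or BS replicate 3, with an adjusted p of up to 0.0788.

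Gabra6 encodes alpha6, a subunit of cerebellar granule cells. It was read in BS libraries alone, at 10.5, 18.03 and 61.0, which were 10, 9 and 29 reads, and had 0 reads in the 8 others (limma adjusted p = 0.00496). Against the mean floor of 3 reads per library in those 8, the BS mean was at least 11.2-fold higher, and without BS replicate 3 at least 5.35-fold. Granule cell genes moved with it: Cbln3 was 4.21, 16.0 and 194 and Fat2 3.15, 24.0 and 116 in BS replicates 1 to 3, while in the other regions they reached at most 1.83 and 3.26. Neurod1, the last of the 3 granule cell genes taken after the values had been seen, was 8.41, 6.01 and 25.3 in BS and at most 5.03 elsewhere, and the part of granule cell RNA in the Gabra6 values was not tested. DESeq2 gave Gabra6 an adjusted p of 0.288, and without BS replicate 3 limma gave 0.0501.

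The other 5 that passed the filter did not pass the test among regions. Gabrq was 36.1 in BS replicate 2 and at most 12.6 in the other libraries. Gabrr2, a rho subunit, was 13.1, 9.13 and 2.57 in HC and at most 2.003 elsewhere, and was called in HC by the study's rule with a limma adjusted p of 0.648 there. Gabrd, Gabre, Gabrp, Gabrr1 and Gabrr3 did not pass the filter, and Gabrr3 had 0 reads in all libraries.

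Many genes that supply, clear or sense GABA differed by region. Over 5 lists of anchoring, transport and metabolism, GABA-B receptor, chloride and modulator genes, 18 of the 47 tested (50 listed) differed among regions, or 38.3%, beside 16.5% of all genes. The lists were chosen with earlier results of these data known, so this share is a description and not a test against all genes. Of the 12 transport and metabolism genes 6 differed. Slc6a11, the GABA transporter GAT-3 of astrocytes, was 26056 to 32499 in OB, 3232 to 5561 in HC, 6412 to 7206 in CX and 7477 to 20819 in BS (limma adjusted p = 0.00021). Gad1, which makes GABA, was 301 to 473 in OB and at most 67.3 elsewhere, Maob 357 to 487 in OB and 593 to 1132 elsewhere, and Aldh1a1 3155 to 7609 in BS and 553 to 1493 elsewhere. Gad2 differed as well, and Gad1 and Gad2 are also the inhibitory neuron markers used above.

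Of the 19 genes that anchor or traffic the receptors, 4 differed. Nlgn2, an adhesion protein of inhibitory synapses, was 192 to 218 in BS and 245 to 469 elsewhere, and the trafficking genes Trak1 and Trak2 were among the 4. Gephyrin itself, Gphn, was not called (adjusted p = 0.261, limma).

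The metabotropic GABA-B genes differed in 3 of the 4 tested. Gabbr1 was 4909 to 5348 and Gabbr2 1538 to 1671 in CX, above all other libraries, where they were 949 to 4305 and 221 to 1430. Kctd12, an auxiliary GABA-B subunit, was 9004 to 14067 in OB and at most 1281 elsewhere (limma adjusted p = 2.67e-07). Gabbr1 and Gabbr2 were thus highest in the region where Gabrg1 was highest, and Kctd12 where Gabra3 was.

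Among the 7 chloride genes, 2 differed. Slc12a2, the importer NKCC1, was lowest in OB at 286 to 404 and reached 982 to 1329.9 in HC and 855 to 1956 in BS (limma adjusted p = 0.00017). Choroid plexus markers (Ttr, Kcne2, Folr1, Kl and Otx2, all 5 differing among regions) summed to 48.2 to 71.6 in OB, 68563 to 139120 in HC, 1532 to 4608 in CX and 48918 to 232273 in BS, with Folr1 at 0 in all OB libraries. Oligodendrocyte markers, 5 of 7 differing, summed to 4253 to 9193 in OB, 14845 to 32521 in HC, 13891 to 16365 in CX and 41195 to 71980 in BS. The part of these cells in the Slc12a2 values was not tested. Clcn2, a chloride channel of glia, ran the other way, at 189.6 to 314 in OB and 40.0 to 56.1 in BS. Of the 5 modulator genes tested 3 differed: Dbi, whose peptide binds at the benzodiazepine site, was 8827 to 9317 in OB and 3007 to 5278 elsewhere, Tspo was lowest in OB at 1.58 to 26.1, and Srd5a1, which helps make neurosteroids, lowest in CX at 11.3 to 21.5. In the related glycine receptor family 3 of 4 tested genes differed, with Glra1 at 26.0 to 35.8 in BS and at most 2.15 elsewhere, Glra4 at 15.6 to 52.1 in OB and at most 1.25 elsewhere, and Glrb at 332 to 555 in BS, its lowest region.

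The genes whose log2 values were most alike over the 11 libraries were, for Gabrg1, Epdr1 (r = 0.96), Fut9 and Chst1, and for Gabra4, Adgrb2 (r = 0.97), Tst and Tlr3. For Gabrb1 they were Nln (r = 0.95), Wscd1 and Aplp2, and for Gabra3 Arhgef6 (r = 0.94), Tmsb10 and Dnah8. Gabra5 was most like Gm9776 (r = 0.93), C4b and Mzt1, Gabrb2 most like Esyt2 (r = 0.92), L1cam and Zfp661, and Gabra2 most like Sumo3 (r = 0.88), Fkbp1b and 2310033P09Rik. Within the family, the overlapping neighbours Gabra4 and Gabrb1 had r = 0.79 and Gabra4 and Gabrg1 r = 0.73, whereas Gabra2, in the same cluster on chromosome 5, reached r = 0.35 with Gabra6 as its nearest subunit and 0.08 with Gabrb1. Gabra5 was nearest to Gabrb2 (r = 0.76). These correlations describe libraries that share size factors and regions.

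**Figure D5:**
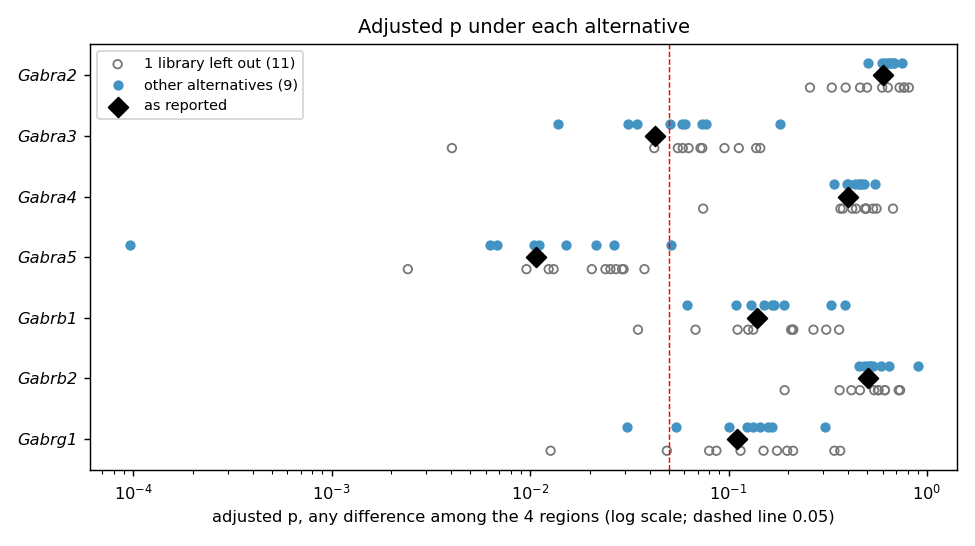
Adjusted p of each subunit for any difference among the 4 regions (horizontal axis, log scale) as reported (diamonds), with 1 library left out in turn (open circles, 11 fits) and under the other alternatives (filled circles, 9 fits), with a dashed line at 0.05. Gabra5 stays left of the line in all fits with 1 library left out, Gabra3 lies on both sides of it, and Gabra2 and Gabrb2 stay right of it throughout.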

How the data were processed

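Per the labels and methods, the authors mapped reads with STAR 2.5.0a to mm10, counted them on UCSC transcripts and normalized with DESeq2 1.20.0. The deposited unit is a normalized signal, the count divided by 1 size factor per sample, which the study calls RPM. All non-zero values (100%) were whole multiples of 1 read within 0.01, so reads were recovered. Values were tested as log2(value + 1) with limma 3.58.1 (R 4.3.3), two-sided and with a mean-variance trend, for genes that filterByExpr of edgeR kept on the recovered reads, with Benjamini-Hochberg adjustment. Exact permutation tests used the between-region sum of squares of log2 values, 1 test for each of the 7 members, without adjustment of their p-values. edgeR 4.0.16 and DESeq2 1.42.0 were alternatives, as were other pseudocounts, no filter, no trend, a replicate block and leaving out libraries. Some genes are not reported here. The pipeline was tested on simulated data. Positions are from GENCODE, promoters from RefSeq. All 7 members were named, other subunits past the filter, at most 4 pathway genes per list by smallest p, and the 3 genes most alike. Members and lists were chosen with earlier results of these data known.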

Additional observations from a re-analysis of the deposited data

How the results depend on the processing

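The log2 changes of Gabra3 in OB and Gabrg1 in CX kept their direction under all alternatives run on them. The count of subunits differing among regions (2) became 1 with edgeR (TMM or RLE factors), a pseudocount of 0.25, no filter, or without OB replicate 2 and BS replicate 1 together (chosen after seeing the data), and 0 without the mean-variance trend, where 2 had an unadjusted p under 0.05. It was 1 to 3 when 1 library was left out. OB calls (1) became 0 with an adjusted p under 0.05 and 2 against the mean of the 3 other region means, and were 0 to 1 with 1 library left out. CX calls (1) became 0 with edgeR (TMM or RLE), no trend or an adjusted p under 0.05, and were 0 to 1 with 1 library left out. BS calls (0) became 1 with DESeq2 and against the mean of the 3 other region means, and BS and HC calls were 0 to 1 with 1 library left out. Pairwise calls (3) became 7 with DESeq2, 7 with the replicate block and 0 without OB replicate 2 and BS replicate 1 together, and were 0 to 8 with 1 library left out. Other subunits differing (2) became 1 with DESeq2 and 1 without OB replicate 2 and BS replicate 1 together, and were 0 to 3 with 1 library left out, where the pathway count (18) was 12 to 22. The cause of these shifts was not tested, beyond the fewer libraries of some fits. Whether replicate numbers pair the libraries is not given in the sources used here, and the main fits treated them as unpaired. Deviations of the 15 same-numbered pairs correlated at -0.16 to 0.25, 3 over 0.1, and 7 of 11 libraries correlated best with their own number. These values do not settle whether the numbers pair libraries. Under the block, 3 subunits differed among regions, Gabrg1 among them (limma adjusted p = 0.0307). Other alternatives left the adjusted p of Gabra3 at 0.0138 to 0.183 and of Gabra5 at 9.61e-05 to 0.0512. Leaving out a CX library leaves 1, whose spread is assumed to be like that of other regions. Few reads lie behind Gabra5 in CX and BS and Gabra6 in BS.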
